A study of Macaca mulatta with 4 samples.

Results

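Genes that mark oligodendrocyte precursor cells and steer the oligodendrocyte lineage were followed in RNA sequencing of the amygdala, a cluster of temporal lobe nuclei, of infant rhesus macaques (Macaca mulatta). Animals exposed to sevoflurane were set against controls. The set was 10 symbols: the transcription factors OLIG1, OLIG2, SOX10 and SOX6, the precursor surface and matrix genes PDGFRA, CSPG4, VCAN and PTPRZ1, and GPR17 and BCAS1, which mark cells leaving the precursor stage. A gene belonged to the set if its Ensembl ID in the count table was paired with one of these symbols. For OLIG1 no ID was paired, so it was not analysed here. The other 9 were found among the 35395 gene IDs of the table, and all 9 passed the filter on low counts with 15417 genes in all. Each was matched by its symbol to 1 ID.

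The sevoflurane group was wild-type animals that breathed sevoflurane, a halogenated ether anaesthetic, at about 2.5 to 3% for 4 hours on each of 3 occasions, near postnatal days 7, 21 and 35. Their amygdala was collected straight after the last exposure. The control group was wild-type animals labelled control, for which the sources used here name no gas. Each group had 2 libraries, 1 from a female and 1 from a male. Nor do these sources say whether a library came from 1 animal or from pooled tissue, so p-values measure only the spread between these libraries, female and male together.

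Oligodendrocyte precursor cells arise from neural progenitors and spread through the brain, where they keep dividing and give rise to myelinating oligodendrocytes. The basic helix-loop-helix factors of the OLIG family set the lineage, SOX10 drives its maturation, and SOX6 is known from mice to hold precursors in their undifferentiated state. PDGFRA is the receptor through which platelet-derived growth factor keeps precursors dividing, and it is switched off as they mature. GPR17 appears for a short time in committed cells, and BCAS1 in cells that are starting to myelinate. In a young primate brain precursors and early myelinating cells are both present.

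Depth was 14413858 and 13615927 reads on genes in the sevoflurane female and male libraries, against 16293371 and 12477047 in the control female and male libraries. The 9 genes held 0.0839% and 0.111% of those reads after sevoflurane, against 0.0417% and 0.0625% in controls, and PTPRZ1 gave most of them in each sevoflurane library. Reads on 6 Y-linked genes numbered 5795 in the male and 6 in the female sevoflurane library, and 2139 in the male and 2 in the female control library, so each library matched its sex label. The control male library stood apart in markers of the choroid plexus, where 9 genes summed to 37.3 and 11.3 CPM in the sevoflurane female and male libraries, against 20.9 and 19493 CPM in the control female and male. All 10 excitatory and all 13 inhibitory neuron markers passed the filter on low counts, though these lists do not tell the amygdala from other forebrain regions. Levels are given as CPM, the gene's reads per 1000000 reads of the library after TMM scaling, which do not correct for transcript length and are compared only within a gene.

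Of the 9 genes, SOX6, PDGFRA and PTPRZ1 rose after sevoflurane and OLIG2 fell, while SOX10, CSPG4, VCAN, GPR17 and BCAS1 did not pass the test. A gene was called at an adjusted p under 0.05 in edgeR's quasi-likelihood test over all 15417 genes. In that test 40.7% of all genes were called, 21.3% higher and 19.4% lower, so 4 called of 9 is near the background share. The 2 libraries of 1 group did not overlap those of the other in 7 of the 9 genes, against 75% of all tested genes. The median log2 fold change of the 9 genes was 0.86, and that of all tested genes was 0.0040. Fold changes are thus relative to a middle gene near 0 under TMM. Scaled by library totals instead, all genes had a median of 0.24, and 63.3% of called genes were higher, against 52.3% with TMM.

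**Figure D1:**
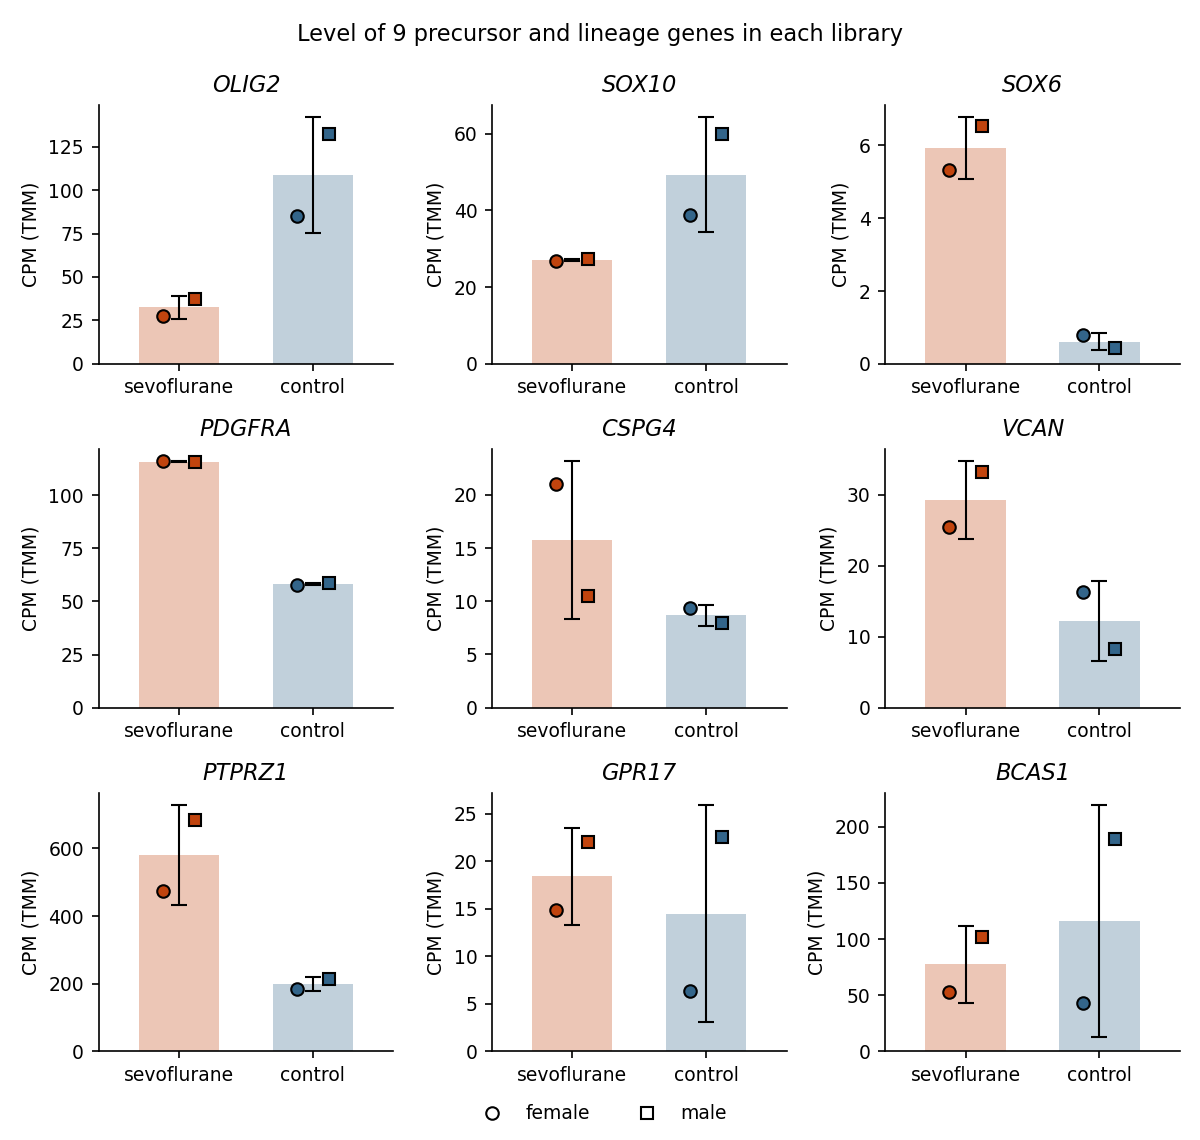
Level of each of the 9 genes, in CPM with TMM scaling on an axis from 0, for the sevoflurane (left) and control (right) groups. Bars are means of 2 libraries, error bars the SD, circles the female and squares the male library. The groups are apart in every panel but those of GPR17 and BCAS1, where the control libraries differ most from each other.

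Among the transcription factors OLIG2 fell and SOX6 rose. OLIG2 (ENSMMUG00000017652), which commits progenitors to the lineage, was at 27.7 and 37.2 CPM in the sevoflurane female and male libraries, against 85.3 and 132.2 CPM in the control female and male. Both sevoflurane libraries lay well under both controls, and the mean was 32.5 ± 6.72 CPM after sevoflurane and 108.7 ± 33.2 CPM in controls (SD, n = 2 each). The log2 fold change was −1.74 ± 0.33 (SE), a 3.35-fold lower level (edgeR adjusted p = 0.00888). It was −1.62 in females and −1.83 in males. In bulk tissue fewer cells of a type and less RNA per cell cannot be told apart, for this and every gene below.

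SOX10 (ENSMMUG00000052236), which switches on myelin genes with MYRF, was at 26.8 and 27.2 CPM in the sevoflurane female and male libraries, against 38.7 and 59.9 CPM in the control female and male. The groups did not overlap, the sevoflurane libraries were nearly equal and the controls spread widely. Its log2 fold change of −0.87 ± 0.32 missed the threshold (edgeR adjusted p = 0.0726). With sex as an added term the value was −0.83 and the gene was called (edgeR adjusted p = 0.0430). That fit has 1 residual degree of freedom and called 7825 genes in all, against 6278 in the main fit.

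SOX6 (ENSMMUG00000002753), a SoxD factor without a transactivation domain, was scarce in controls. It had 84 and 95 reads in the sevoflurane female and male libraries, against 12 and 5 reads in the control female and male. As CPM these were 5.32 and 6.52 after sevoflurane, against 0.783 and 0.444 in controls. Each sevoflurane library was several-fold above each control, and the fitted ratio was 9.41-fold higher (log2 fold change 3.23 ± 0.65, edgeR adjusted p = 0.0106). The call was lost without the sevoflurane male library (3.09, edgeR adjusted p = 0.0702). Its control levels rest on few reads.

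The precursor surface genes were all at higher values after sevoflurane, and 2 of the 4 were called. PDGFRA (ENSMMUG00000017395), the receptor tyrosine kinase that defines precursors, was at 116.0 and 115.5 CPM in the sevoflurane female and male libraries, against 57.9 and 58.6 CPM in the control female and male. Its libraries were nearly equal within each group, and the level was 1.99-fold higher after sevoflurane (log2 fold change 0.99 ± 0.24, edgeR adjusted p = 0.0196). The value was 1.001 in females and 0.98 in males. With 1 library left out it stayed between 0.97 and 1.004, but the call was lost with the sevoflurane male (edgeR adjusted p = 0.0570), the control female (0.0941) or the control male library (0.121) left out.

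PTPRZ1 (ENSMMUG00000012418), a receptor tyrosine phosphatase with chondroitin sulfate chains, is also expressed by astrocytes and neural progenitors. It was at 474.9 and 685.2 CPM in the sevoflurane female and male libraries, against 184.7 and 213.4 CPM in the control female and male. Both sevoflurane libraries exceeded both controls by more than the spread within either group. The mean was 580.1 ± 148.7 CPM after sevoflurane and 199.0 ± 20.3 CPM in controls (SD, n = 2 each), a 2.91-fold higher level (log2 fold change 1.54 ± 0.29, edgeR adjusted p = 0.00891).

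VCAN (ENSMMUG00000011513), the matrix proteoglycan versican, was at 25.4 and 33.2 CPM in the sevoflurane female and male libraries, against 16.2 and 8.26 CPM in the control female and male. The groups did not overlap, but the control female lay close to the sevoflurane female library. The log2 fold change of 1.25 ± 0.42 missed the threshold (edgeR adjusted p = 0.0546). The difference was 0.65 in females and 2.01 in males. VCAN was called higher under 6 of 10 alternatives, and without the control female library its value was 1.85 (edgeR adjusted p = 0.0130).

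CSPG4 (ENSMMUG00000016104), the NG2 proteoglycan, is shared by precursors and pericytes. It was at 21.01 and 10.5 CPM in the sevoflurane female and male libraries, against 9.39 and 7.99 CPM in the control female and male. The sevoflurane female library stood above the other libraries, and the sevoflurane male lay just above the control female. The log2 fold change of 0.86 ± 0.46 did not pass (edgeR adjusted p = 0.177), and no alternative called it.

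The markers of cells past the precursor stage showed no shared direction. GPR17 (ENSMMUG00000004180), a G protein-coupled receptor that holds back maturation, was at 14.8 and 21.98 CPM in the sevoflurane female and male libraries, against 6.39 and 22.6 CPM in the control female and male. Both sevoflurane libraries lay between the controls, of which the female was far lower than the male. The log2 fold change was 0.35 ± 0.61 (edgeR adjusted p = 0.669), from 1.21 in females and −0.038 in males. It was −0.27 when the control female was left out and 1.496 when the control male was.

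BCAS1 (ENSMMUG00000020082), found in early myelinating cells, was at 53.3 and 101.9 CPM in the sevoflurane female and male libraries, against 43.5 and 189.3 CPM in the control female and male. Here too both sevoflurane libraries lay between the controls. The log2 fold change was −0.58 ± 0.67 (edgeR adjusted p = 0.513), from 0.29 in females and −0.89 in males. Without the control female library BCAS1 was called lower (−1.26, edgeR adjusted p = 0.0404), and leaving out the control male gave 0.81 (edgeR adjusted p = 0.242). Opposite signs in females and males, as in GPR17 and BCAS1 (2 of 9), were found for 14.6% of all tested genes.

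**Figure D2:**
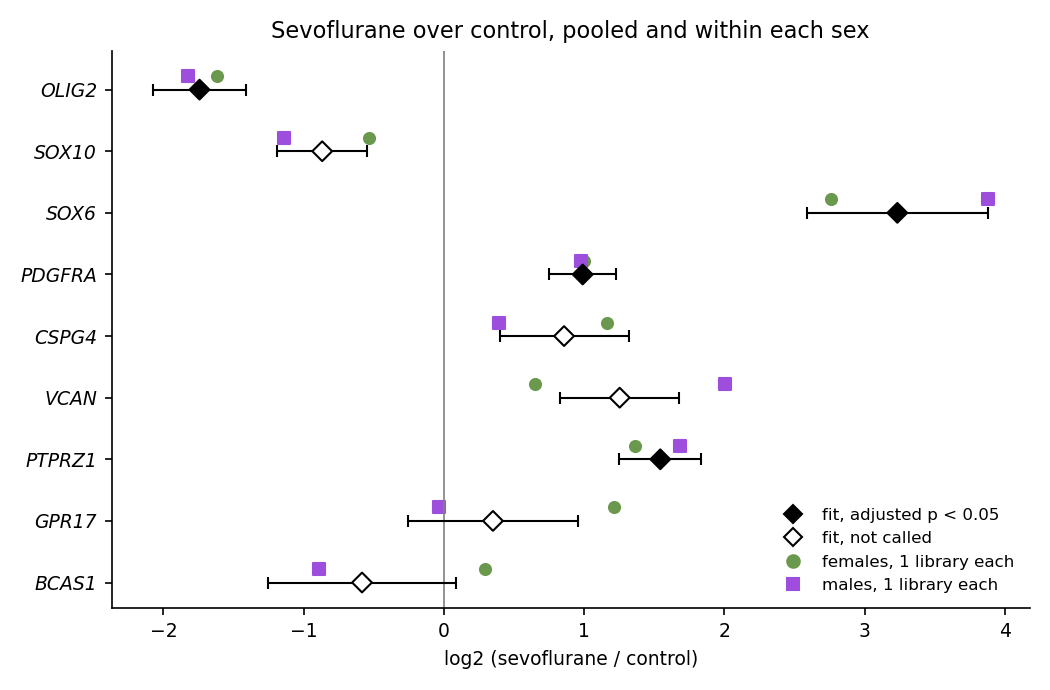
Log2 fold change of sevoflurane over control for each gene. Diamonds are the fit with its standard error as bars (filled where the adjusted p was under 0.05), circles the female and squares the male pair of libraries. OLIG2 at −1.74 and SOX6 at 3.23 mark the ends, and the female and male points of GPR17 and BCAS1 fall on opposite sides of 0.

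Ratios of reads between genes of the same library do not depend on how libraries are scaled. Per read on OLIG2 there were 4.18 and 3.10 reads on PDGFRA in the sevoflurane female and male libraries, against 0.679 and 0.444 in the control female and male. Per read on SOX10 there were 4.33 and 4.25 reads on PDGFRA after sevoflurane, against 1.497 and 0.979 in controls, and 1.04 and 1.37 reads on OLIG2 after sevoflurane, against 2.20 and 2.21 in controls. Thus OLIG2 was lower relative to SOX10 and PDGFRA higher relative to both, in each sex. The ratio of SOX6 to SOX10 reads was 0.199 and 0.240 after sevoflurane, against 0.0202 and 0.00742 in controls. By contrast the ratio of CSPG4 to PDGFRA overlapped between groups, at 0.181 and 0.0910 after sevoflurane and 0.162 and 0.136 in controls. With 2 libraries against 2 the smallest two-sided p of an exact permutation test is 0.333, so these ratios are given as values without a test.

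BCAS1, the latest marker of the set, was compared with genes of other stages. There were 2.18 and 1.13 reads on PDGFRA per read on BCAS1 in the sevoflurane female and male libraries, against 1.33 and 0.310 in the control female and male, so the groups overlapped and the female was higher in both. Per read on MBP, a main myelin gene, BCAS1 had 0.0380 and 0.0805 reads after sevoflurane, against 0.0634 and 0.0542 in controls, so these groups overlapped too. Per read on GPR17, the marker of committed cells, BCAS1 had 3.60 and 4.64 reads after sevoflurane, against 6.81 and 8.39 in controls, lower in both sevoflurane libraries than in either control.

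The calls differed in how far they rested on single libraries. With each library left out in turn, OLIG2 was called lower in every fit (−1.9997 to −1.42) and PTPRZ1 higher in every fit (1.26 to 1.79). The median log2 fold change of the 9 genes was 0.62 with the sevoflurane female left out and 0.997 with the sevoflurane male left out. It was 0.997 with the control female left out and 0.82 with the control male left out. Fewer genes in all were called in each of these fits than with all 4 libraries, so a lost call is not particular to these genes.

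**Figure D3:**
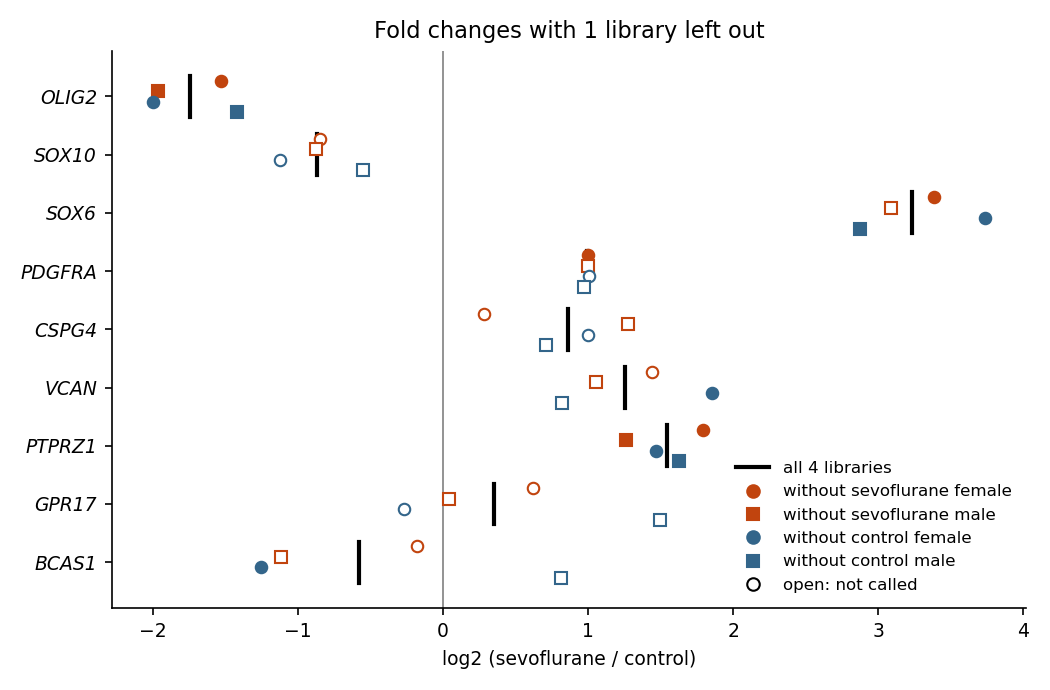
Log2 fold change of sevoflurane over control for each gene with all 4 libraries (black bars) and with 1 library left out (circles female, squares male; orange a sevoflurane and blue a control library left out; open symbols were not called). The symbols of OLIG2 and PTPRZ1 are all filled, and those of GPR17 and BCAS1 spread across 0.

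The sexes were compared with condition as a term. Among the 9 genes BCAS1 was called higher in males, and 0 were called higher in females (0 at an unadjusted p under 0.05 and 0 by DESeq2), where 1.84% of all genes were called, 0.798% higher in males and 1.04% higher in females. BCAS1 was at 101.9 CPM in the male and 53.3 in the female sevoflurane library, and at 189.3 in the male and 43.5 in the female control library. The male was the higher library in both conditions, with a log2 difference of 1.53 ± 0.33 (edgeR adjusted p = 0.0254). This call rests on 1 residual degree of freedom and was lost with sex as the only term (1.59, edgeR adjusted p = 1). GPR17 was also at higher values in the male of both conditions, by 0.57 after sevoflurane and 1.82 in controls, but did not pass (1.18 ± 0.43, edgeR adjusted p = 0.241). PDGFRA differed least, at 0.0058 ± 0.29. The male over female sign was opposite in the 2 conditions for SOX6, PDGFRA and VCAN (3 of 9), and for 44.4% of all tested genes.

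**Figure D4:**
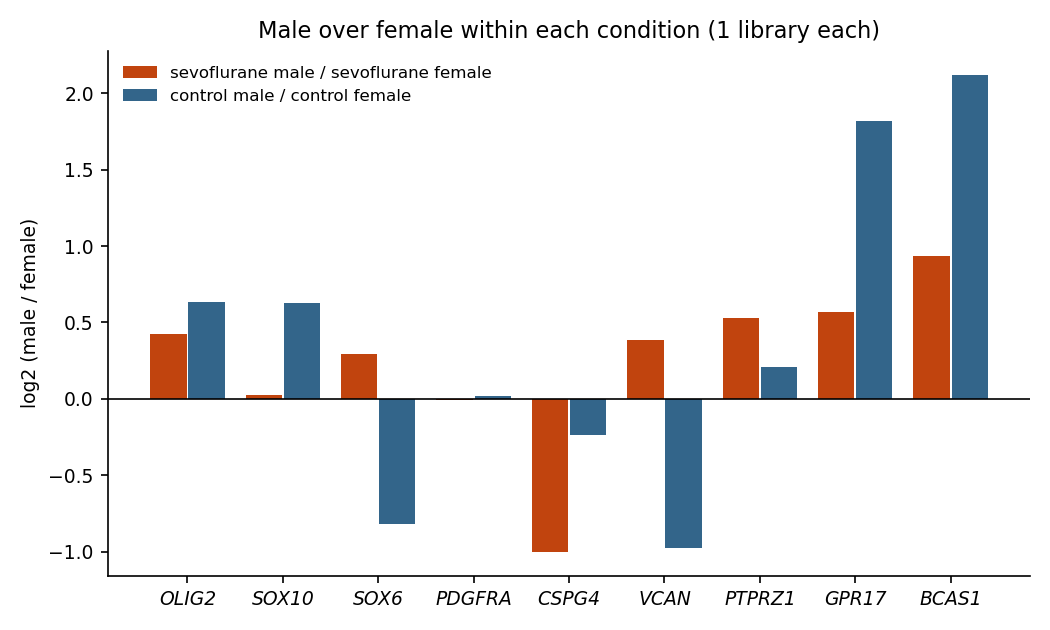
Log2 ratio of the male over the female library within the sevoflurane (left bars) and control (right bars) groups, 1 library each, so there is no error. BCAS1 and GPR17 have the tallest bars, 2.12 and 1.82 in controls, and the bars of SOX6 and VCAN point in opposite directions in the 2 conditions.

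The stages around the precursor were described with lists of other genes of the lineage. Counts called against control in these lists stand beside 21.3% higher and 19.4% lower among all tested genes. With 1 library left out both shares of all genes were lower, so counts from those fits stand beside lower shares. All 27 tested mature myelinating markers had a male over female log2 value above 0, with a median of 0.91. Of these 4 were called, among them MOG (1.44), OPALIN (1.76) and ERMN (1.601), genes of myelinating cells named here after their values were seen (edgeR adjusted p from 0.0176 to 0.0419, and 1 for each with sex as the only term). The 27 markers summed to 4308 CPM in the male and 3348 in the female sevoflurane library, and 7874 in the male and 1981 in the female control library. BCAS1 was likewise highest in the control male and lowest in the control female library. Sex and other differences between single libraries cannot be told apart here, since each condition has 1 library of each sex.

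Against control, 0 of the 27 mature markers were called higher after sevoflurane (0 at an unadjusted p under 0.05, 0 by DESeq2) and 5 lower, with a median log2 fold change of −0.94. The 5 lower of 27 are near the 19.4% of all tested genes. PPP1R14A, a phosphatase inhibitor enriched in oligodendrocytes, was at 4.11 ± 0.369 CPM after sevoflurane and 55.5 ± 42.9 CPM in controls (−3.75 ± 0.63, edgeR adjusted p = 0.00619). GAL3ST1, which makes the myelin lipid sulfatide, changed by −2.19 ± 0.61 (edgeR adjusted p = 0.0297). The direction of this list depended on the control male library: with it left out the median was 0.30, with 3 higher and 3 lower (15.3% and 13.4% of all genes), PPP1R14A was at −2.65 and the call of GAL3ST1 was lost (−1.26). With the control female left out 14 were lower (17.2% of all genes) and PPP1R14A was at −4.36. With the sevoflurane female left out 2 were lower (14.3% of all genes), with the sevoflurane male left out 1 (9.32%), and GAL3ST1 was called in neither fit (−2.09 and −2.29).

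Other precursor markers went both ways. Of 20 tested, 8 rose and 4 fell, with a median of 0.62. LHFPL3, a tetraspan membrane protein of precursors, was at 17.9 ± 8.86 CPM after sevoflurane and 0.495 ± 0.0540 CPM in controls (5.16 ± 0.62, edgeR adjusted p = 0.00267; 4.54 without the sevoflurane male). XYLT1, the enzyme that starts the sugar chains of proteoglycans such as NG2 and versican, rose by 4.56 ± 0.78 (edgeR adjusted p = 0.0066; 3.69 with the sevoflurane female left out and 5.26 with the control male left out). NEU4, a sialidase, fell to 2.60 ± 1.06 CPM, against 23.2 ± 4.69 CPM in controls (−3.14 ± 0.47), and C1QL1, a secreted C1q-like protein, changed by −2.49 ± 0.34. With either sevoflurane library left out 2 of the 20 fell.

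Of 24 lineage regulators 6 were higher and 6 lower, near the shares of all tested genes in both directions, with a median of −0.29. SOX5, the SoxD partner that acts with SOX6 in mice, rose in the same direction as SOX6, to 17.7 ± 1.25 CPM against 0.983 ± 0.745 CPM in controls (4.19 ± 0.65, edgeR adjusted p = 0.00499). It was at 3.56 with the control female left out and 5.22 with the control male left out. PROX1, a homeobox factor of the lineage, had 192 reads after sevoflurane and 3 in controls, which lay in the male library. Scaled by depth the ratio was 56.1, with a 95% interval from counting error of 18.9 to 274.2. It was 23.7 (8.0001 to 116.1) with the control female left out, and at least 32.3-fold higher with the control male left out, against a floor of 3 counts or 0.196 CPM. Its call was lost without the sevoflurane female, where the ratio was 36.5 (11.9 to 182.1). HES5, a target of Notch signalling, fell to 1.23 ± 0.397 CPM, against 13.8 ± 0.479 CPM in controls (−3.48 ± 0.51). NKX6-2, a homeobox factor of myelinating cells, changed by −2.41 ± 0.77 (edgeR adjusted p = 0.0474), a call lost with library totals and with the sevoflurane female (−2.17), the sevoflurane male (−2.68) or the control male (−0.95) left out. It was −3.11 with the control female left out. With either sevoflurane library left out 3 regulators fell, as with library totals. The median was 0.0049 with the control female and 0.03 with the control male left out.

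Among 12 committed and premyelinating markers 4 rose and 2 fell, with a median of −0.18 that was 0.05 with library totals. NFASC, the cell adhesion molecule neurofascin, was at 94.8 ± 2.59 CPM after sevoflurane and 10.5 ± 0.652 CPM in controls (3.17 ± 0.28, edgeR adjusted p = 0.00165). TNS3, the focal adhesion protein tensin 3, rose by 3.58 ± 0.49. LIMS2, another focal adhesion protein, fell to 7.45 ± 0.828 CPM, against 50.3 ± 6.24 CPM in controls (−2.75 ± 0.32). The tetraspanin CD9 changed by −1.95 ± 0.51, a call lost with the sevoflurane female (−2.12), the sevoflurane male (−1.78) or the control male (−1.03) left out, and in each of these fits 1 of the 12 fell.

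Growth factors that act on precursors and their receptors followed. Of 19 mitogens and their receptors 7 rose and 1 fell, with a median of 0.89. FGF2, a mitogen that keeps precursors dividing together with PDGF, rose by 2.75 ± 0.61 (edgeR adjusted p = 0.0150; not called without the sevoflurane male, 2.23). ERBB4, a neuregulin receptor, rose by 2.80 ± 0.49, and its partner ERBB2 fell by 1.79 ± 0.49 on the log2 scale, a call lost with the sevoflurane male (−1.45) or the control male (−1.25) left out. PDGFA and PDGFC, ligands of PDGFRA, are named here after their values were seen. PDGFA was at 51.3 and 35.1 CPM in the sevoflurane female and male libraries, against 67.8 and 62.0 CPM in the control female and male (−0.59, edgeR adjusted p = 0.154). PDGFC was at 5.76 and 10.1 CPM in the sevoflurane female and male libraries, against 1.11 and 2.04 CPM in the control female and male. It rose by 2.33 ± 0.62 (edgeR adjusted p = 0.0272), a call lost with the sevoflurane male (1.88) or the control female (1.98) left out. Without the sevoflurane male library 4 of the 19 rose and 0 fell, without the control male 0 fell, and without the control female 2 fell.

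Of 18 matrix and surface partners 6 rose and 2 fell, with a median of 0.43. CNTN1, the axonal contactin that PTPRZ1 binds, was at 613.7 ± 235.1 CPM after sevoflurane and 22.02 ± 1.90 CPM in controls (4.80 ± 0.39, edgeR adjusted p = 0.00146). GRIP1, a scaffold that binds the tail of NG2, rose by 3.95 ± 0.48. The 2 that fell were MDK, the PTPRZ1 ligand midkine (−2.03 ± 0.43), and BCAN, the matrix proteoglycan brevican (−1.33 ± 0.34). The call of MDK was lost with the sevoflurane female (−2.05) or male (−1.997) left out, and that of BCAN with the sevoflurane male (−1.04) or the control male (−1.09) left out. Of the 18, 1 fell with the sevoflurane female or the control male left out and 0 with the sevoflurane male left out.

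A list named for inhibitory differentiation signals, which also holds regulators with other roles, had 7 of 18 higher and 2 lower, with a median of 0.54. JAG1, a Notch ligand, was at 16.8 ± 6.81 CPM after sevoflurane and 0.859 ± 0.292 CPM in controls (4.30 ± 0.58, edgeR adjusted p = 0.00356). BMPR2, a receptor for bone morphogenetic proteins, rose by 3.94 ± 0.31. The 2 that fell were RXRG (−2.72 ± 0.58), a retinoid receptor that promotes maturation in rodents, and APCDD1 (−1.13 ± 0.26), a Wnt antagonist. RXRG was at −3.31 with the sevoflurane female left out and −1.93 with the control male left out, and not called without the sevoflurane male library (−2.30). APCDD1 was not called with the sevoflurane male (−1.06) or the control female (−0.96) left out. Of the 18, 4 rose with the sevoflurane female left out, 0 fell with the sevoflurane male left out and 1 fell with the control female left out.

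**Figure D5:**
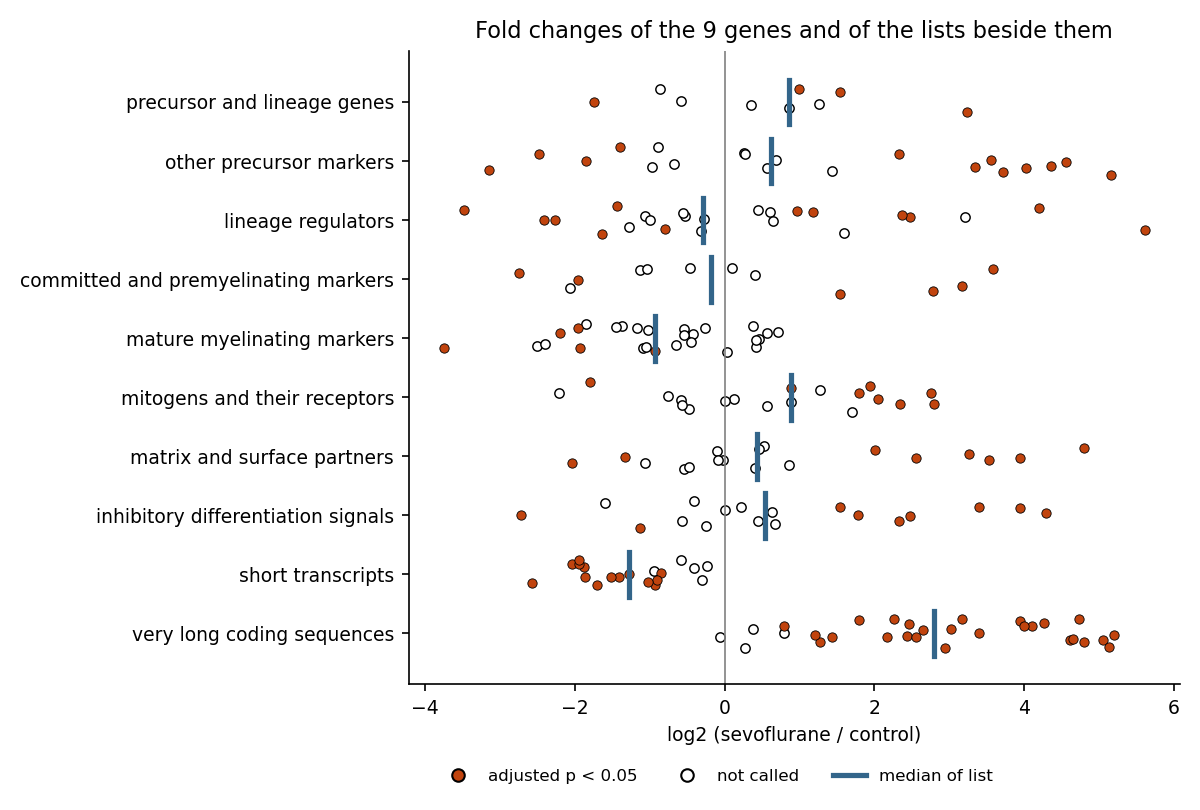
Log2 fold change of sevoflurane over control for the 9 precursor and lineage genes (top) and for the tested genes of each list, 1 point a gene (filled where called), with the median as a bar. The 9 genes reach from −1.74 to 3.23. Their median of 0.86 lies between those of short transcripts (−1.28) and very long coding sequences (2.79), as do the medians of the lineage and pathway lists.

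Transcript class moved with condition beside these genes. Of 30 genes known for very long coding sequences 26 were called higher and 0 lower (0 at an unadjusted p under 0.05, 0 by DESeq2), with a median of 2.79. Of 19 proteasome and Sm spliceosome genes, whose transcripts are short, 14 were called lower and 0 higher (0 at an unadjusted p under 0.05, 0 by DESeq2), with a median of −1.28. With the sevoflurane female or the control male left out 9 of these 19 were lower. Transcript length was not measured, and the part of transcript class in the values of the 9 genes was not tested.

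Some of the 9 genes are also expressed by other cells, whose markers were measured beside them. Counts called in these lists, and in the transcript classes above, also stand beside 21.3% higher and 19.4% lower among all tested genes. With 1 library left out they stand beside lower shares. PTPRZ1 is shared with astrocytes, and of 15 astrocyte markers 3 were higher and 4 lower, with a summed level of 4685 and 5419 CPM in the sevoflurane female and male libraries, against 6626 and 6773 CPM in the control female and male. Per read on GFAP, the astrocyte filament, PTPRZ1 had 1.87 and 1.24 reads after sevoflurane, against 0.0797 and 0.0913 in controls, and per read on SLC1A2, the astrocyte glutamate transporter, 1.28 and 1.35, against 6.45 and 13.4. PTPRZ1 was thus higher relative to 1 astrocyte gene and lower relative to another. GFAP itself was at 253.8 and 551.8 CPM after sevoflurane, against 2317 and 2337 CPM in controls (−2.53 ± 0.43, edgeR adjusted p = 0.00623; −3.19 with the sevoflurane male left out). Without GFAP the other 14 markers summed to 4432 and 4867 CPM after sevoflurane, against 4309 and 4436 CPM in controls. The lower sum of the list thus rested on GFAP, a gene set apart after the values were seen. The sum of the 14 held changes both ways. SLC1A2, SLC4A4 and FGFR3 were called higher, and S100B, ALDOC and ALDH1L1 lower. Mean SLC1A3 was 1676 CPM after sevoflurane and 834 CPM in controls (not called), and mean ALDOC was 682 and 1220 CPM. With library totals 5 astrocyte markers were higher and 2 lower, and 2 were lower with either sevoflurane library left out.

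CSPG4 is shared with pericytes, whose list with smooth muscle had 2 of 11 higher and 2 lower, and summed to 202.7 and 139.6 CPM in the sevoflurane female and male libraries, against 303.5 and 213.9 CPM in the control female and male. It had 4 lower with the sevoflurane female or the control male left out. The lower sum lay in 4 contractile genes of smooth muscle (ACTA2, MYH11, TAGLN and CNN1), at 33.4 and 24.9 CPM after sevoflurane against 211.1 and 119.0 CPM in controls. The other 7 genes summed to 169.3 and 114.7 CPM after sevoflurane, against 92.4 and 94.9 CPM in controls. This split of the list was made after the values were seen. The higher sum lay in RGS5, at 90.6 and 60.9 CPM after sevoflurane, against 23.0 and 16.8 CPM in controls. Of the rest, ABCC9 and NOTCH3 had higher and PDGFRB, KCNJ8, ANPEP and HIGD1B lower means after sevoflurane. The 4 called, named after their values were seen, were RGS5 (1.93 ± 0.34) and ABCC9 (133 and 109 reads, against 4 and 0), both of pericytes and higher, and ACTA2 (−3.24 ± 0.43; −2.59 with the control female left out) and TAGLN (−2.12 ± 0.32), which were lower. Per read on PDGFRB, the pericyte receptor, CSPG4 had 0.504 and 0.357 reads after sevoflurane, against 0.215 and 0.145 in controls. Per read on RGS5 it had 0.232 and 0.173 after sevoflurane, against 0.409 and 0.476 in controls, so CSPG4 was higher relative to 1 pericyte gene and lower relative to another.

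PDGFRA and VCAN are shared with fibroblasts. Of 10 fibroblast and meningeal markers 6 were lower and 0 higher (0 at an unadjusted p under 0.05, 0 by DESeq2), and the list summed to 281.8 and 194.2 CPM in the sevoflurane female and male libraries, against 3806 and 2055 CPM in the control female and male. With either sevoflurane library left out 4 were lower. PDGFRA reads per read on DCN, the fibroblast proteoglycan decorin, were 3.25 and 2.87 after sevoflurane, against 0.514 and 0.876 in controls. Both a higher PDGFRA and a lower DCN enter this ratio. The part of fibroblasts in the levels of PDGFRA and VCAN was not tested.

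SOX10 is shared with Schwann cells, whose 7 matched markers summed to 55.7 and 52.6 CPM in the sevoflurane female and male libraries, against 89.4 and 103.3 CPM in the control female and male, with FOXD3 at 0 reads in every library. Of the 5 tested 2 were lower, and 0 with any 1 library left out. SOX6 is shared with interneurons, and 13 inhibitory neuron markers summed to 1082 and 1077 CPM after sevoflurane, against 1798 and 2236 CPM in controls, with 1 called higher and 2 lower (0 to 2 higher with 1 library left out). Of 9 proliferation markers 2 rose, with sums of 75.2 and 85.5 CPM after sevoflurane and 69.5 and 77.6 CPM in controls, and 0 rose with the control female or either sevoflurane library left out, and 1 with the control male left out. Among microglial markers 7 of 12 were lower and 1 higher (0 higher with either sevoflurane library left out), and among endothelial markers 3 of 9 were higher and 2 lower (1 higher with the sevoflurane female left out, 1 lower with the sevoflurane male left out). In the remaining lists the summed levels were 192.6 and 256.9 CPM after sevoflurane against 501.8 and 457.4 CPM in controls for microglia, 243.2 and 194.1 against 254.6 and 277.1 for endothelium, 3452 and 3126 against 3210 and 2682 for excitatory neurons, and 39.1 and 39.9 against 42.3 and 207.3 for ependyma, where TMEM212 had 0 reads in every library. The part of these cell types in the values of the 9 genes was not tested.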

How the data were processed

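The authors deposited raw read counts per Ensembl gene ID, 1 column per library and not normalized. Reads were aligned with HISAT2, per the submitters' processing notes. The aligner's version, counting program, genome build, annotation and strand setting were not given in the sources used here, so reads shared with near-identical or overlapping genes are uncertain. Each of the 4 sample columns was used.

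Symbols came from a table that pairs gene IDs with names and covered 24173 of 35395 IDs. Of 317 listed symbols 10 had no ID and 2 (MOBP, SNRPD2) named several IDs and were left out. Genes were filtered with filterByExpr (minimum count 10), scaled with TMM and tested with the quasi-likelihood F-test of edgeR 4.0.16 in R 4.3.3, with Benjamini-Hochberg adjustment over all tested genes. The sevoflurane comparison had condition as its only term (2 residual degrees of freedom), and the comparison of the sexes had condition and sex (1 degree). Standard errors were derived from the F statistic. TMM factors were 1.10 and 1.07 for the sevoflurane female and male and 0.942 and 0.904 for the control female and male library. The fit was tested on simulated counts first. DESeq2 1.42.0 was an alternative, beside library totals, other size factors, other filters, sex as a term and leaving out each library. Counting intervals and floors cover counting error only.

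From each lineage and pathway list, up to 2 called genes of largest rise and 2 of largest fall that moved alike in both sexes were named. The members, lists, named ratios and tests were chosen with earlier results of these data known, and the list of very long coding sequences was written after them from general knowledge. A planned description of coding length was not made, for want of a sequence table. A gene of the mature myelinating list is not reported here by name.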

Additional observations from a re-analysis of the deposited data

Results flagged for a closer look

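For 5 genes the effect had opposite signs in 2 groups, with 1 library behind each value, so none of these differences was tested. GPR17 differed between sevoflurane and control by 1.21 (log2) in females and −0.038 in males, and BCAS1 by 0.29 in females and −0.89 in males. Opposite signs in the sexes were found for 14.6% of all tested genes. Between male and female, SOX6 differed by 0.30 after sevoflurane and −0.82 in controls, and VCAN by 0.38 after sevoflurane and −0.98 in controls. PDGFRA differed by −0.0055 after sevoflurane and 0.017 in controls, values close to 0 in both. Opposite signs in the 2 conditions were found for 44.4% of all tested genes.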

How the results depend on the processing

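Among the 9 genes, OLIG2 and PTPRZ1 were called in the same direction under all 10 alternatives, SOX6 under 8 of the 9 that tested it, PDGFRA under 7 of 10, SOX10 and BCAS1 under 1 of 10, and CSPG4 and GPR17 under 0 of 10. VCAN, not called with TMM and edgeR, was called higher with library totals, DESeq2, no filter, a mean of at least 5 CPM, sex as a term and without the control female library. With sex as a term (the replicate block) 2 of the 9 were called lower, against 1, and 7825 genes in all, against 6278. With 1 library left out fewer genes in all were called in each fit than with all 4 libraries. Over these fits GPR17 ran from −0.27 (control female left out) to 1.496 (control male left out), and BCAS1 from −1.26 (control female left out) to 0.81 (control male left out). Between the sexes, SOX6 turned to 0.20 with sex as the only term, and PDGFRA to −0.041 with library totals and −0.0091 without a filter. With sex as the only term 0 of the 9 and 0 genes in all were called higher in males (edgeR; 168 genes of either direction at an unadjusted p under 0.05), and without a filter 603 genes in all were called between the sexes, against 283. The cause of these shifts was not tested.

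Over the alternatives the mature myelinating markers called lower ran from 1 to 14 (9 with DESeq2 and with the replicate block, 11 without a filter), the lineage regulators lower from 3 to 8, the committed markers lower from 1 to 4 (4 with the replicate block), the mitogens lower from 0 to 2 (2 without a filter), the pericyte markers lower from 2 to 4 and the inhibitory neuron markers lower from 2 to 5, while the very long coding sequences higher ran from 23 to 27. Depth limits SOX6, PROX1 and other genes with few control reads, and 2 libraries a group limit every p.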
